A study of Danio rerio with 114 samples.

Results

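The RNAs described here are 200 zebrafish genes whose level in rRNA-depleted RNA of wild-type (WT) embryos was lowest at sphere stage relative to the 2-cell stage. They were chosen by measured values. Of 31466 gene IDs, the 7202 with a mean of at least 20 CPM (reads of a gene per 1000000 reads of all genes) over the 3 WT 2-cell libraries were ranked by log2 of (sphere CPM + 1) over (2-cell CPM + 1), and the first 200 were taken. The fall in WT rRNA-depleted embryos between these stages is therefore a description. The tests below use other libraries: rRNA-depleted ski7-/- embryos, oocytes of both genotypes, mature eggs, and polyA+ embryos of both genotypes. They also use rRNA-depleted WT embryos at the 2 stages between 2-cell and sphere. Other WT embryo libraries varied partly together with those that chose the members. Tests that use them are therefore not fully independent of the choice. By name, 51 of the 200 are clone-type entries or have no symbol, and symbols are spelled as the reference table gives them.

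The series compared ski7-/- with WT fish, both of the TLAB strain, at 11 stages with 3 libraries per genotype and stage. The ski7-/- line carries a CRISPR/Cas9 frameshift deletion in the exon that makes the ski7 splice form of hbs1l; in yeast and human cells Ski7 connects the cytoplasmic RNA exosome, a 3′ to 5′ RNA-degrading complex, with its helper helicase complex. Oocytes of stage I (O1), II (O2), III (O3) and IV-V (O4) were sorted by hand from the ovaries of 3 females per genotype, unactivated (UNA), activated (ACT) and fertilized (FER) eggs of a replicate came from 1 female, and embryos at 2 cell (E1), 64 cell (E2), 1000 cell (E3) and sphere (E4) were pooled per library. PolyA+ RNA was sequenced at all 11 stages and rRNA-depleted RNA at the 8 oocyte and embryo stages, 114 libraries in all. The 66 polyA+ libraries held 2910639 to 145420525 gene reads and the 48 rRNA-depleted libraries 1439427 to 46600444, of which the 12 at E1 and E4 held 2041012 to 6748485. The ID of the ski7 locus is shared with hbs1l and so checks the genotype only in part: it was lower in ski7-/- than in WT at O1 and O2 in rRNA-depleted RNA (log2 fold change -0.66 and -0.69, adjusted p 0.00195 and 0.00179 in edgeR's quasi-likelihood test) and was not called in the other comparisons. Whole oocytes and embryos were used, so fewer cells of a type and less RNA per cell cannot be told apart.

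A fish oocyte stores the RNA that the embryo uses before its own genome is transcribed. Many stored RNAs have short poly(A) tails that are lengthened or shortened at maturation and after fertilization, which changes their capture by oligo-dT without any change in the number of molecules. Maternal RNAs are later degraded, in part by factors already in the egg and in part by products of the zygotic genome, such as the microRNA miR-430. An rRNA-depleted library counts an RNA whatever its tail, and a polyA+ library counts it according to its tail, so the course of a maternal RNA differs between the library types.

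The word cleared described few of these RNAs. The members' median mean level in WT rRNA-depleted embryos was 24 CPM at E4, against 40.3 CPM at E1. The median of the ranking value was -0.72 log2 units, against -0.02 over all 7202 ranked genes, of which 3917 lay below 0. A value of -1 or lower was reached by 24 members, and a value of -2 or lower by 1, si:dkeyp-98a7.4. The last genes taken were NHS (13.6 CPM at E4, 20.8 CPM at E1) and NDUFS5 (26.0 CPM at E4, 39.4 CPM at E1), both at -0.58, and the first left out were ATP6V1C1 (38.5 CPM at E4, 58.1 CPM at E1) and PRR12 (15.0 CPM at E4, 23.0 CPM at E1), so no gap separated the members from the next genes. By reads, the median member had 194 over the 3 WT E4 libraries together and 429 over the 3 at E1.

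Several of the first ranks rested on differences between WT libraries of the same stage. EIF2AK3, the kinase PERK of the unfolded protein response, had 67.6, 2.03 and 0.74 CPM in the WT E4 libraries, against 96.9, 96.2 and 0.546 CPM at E1. Both a high and a low level were thus present within each stage, and only replicate 2 was at the high level at E1 and the low level at E4. The nuclear receptor gene nr1d2a had 0.98, 0.869 and 91.0 CPM at E4, against 0.908, 103 and 107 CPM at E1, again with replicate 2 at the high level at E1 and the low level at E4. The amyloid precursor gene appa had 24, 2.90 and 5.18 CPM at E4, against 50.3, 44.4 and 1.37 CPM at E1. A spread of 5 times or more (CPM + 1) between the WT libraries of at least 1 embryo stage was found in 12 members (6%) and in 77 (1.10%) of the other ranked genes. Of the first 12 ranks, 5 were among them: si:dkeyp-98a7.4, appa, EIF2AK3, DOCK10 and nr1d2a. Across genes, the deviations of WT replicate 2 from the stage means at E1 and E4 correlated at r = -0.06, against 0.59 for WT replicate 1 and 0.36 for WT replicate 3, so the embryos numbered 2 at those stages did not share their deviations; whether they came from other parents is not stated. Ranked without WT replicate 1, 2 or 3, the first 200 genes kept 148, 124 and 147 members, and 68 were kept in each case.

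**Figure D1:**
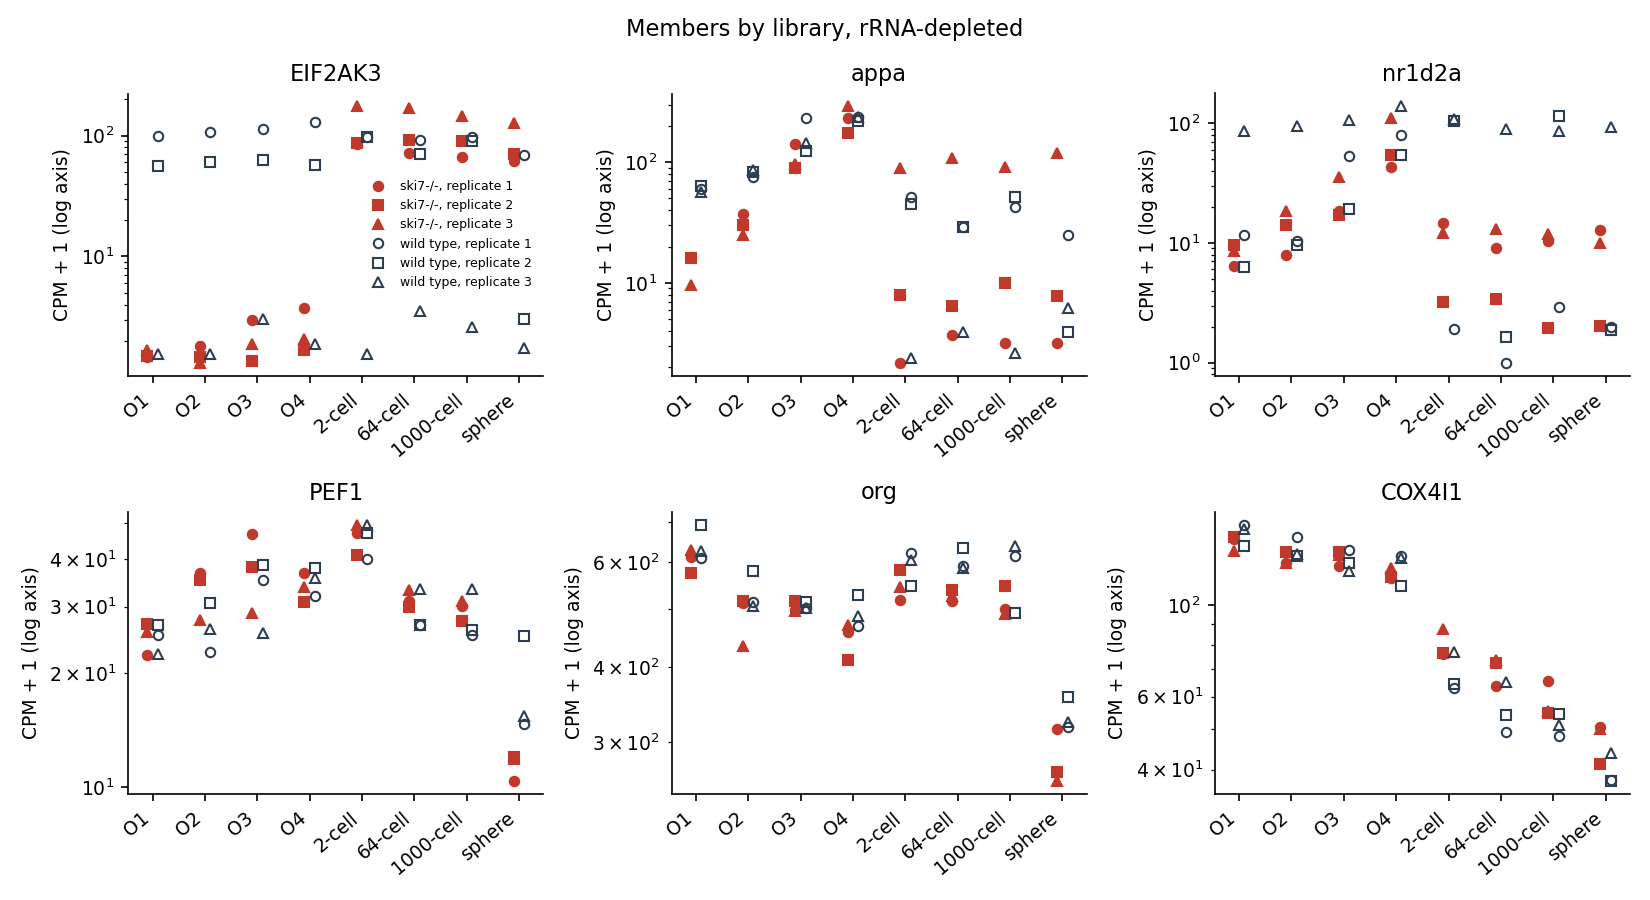
Level (CPM + 1, log axis) in each rRNA-depleted library of 6 members at every oocyte and embryo stage, ski7-/- in red on the left and WT in dark on the right of each stage, each point a library. In PEF1, org and COX4I1 the 3 libraries of a stage stay together and fall at E4, while EIF2AK3, nr1d2a and appa are split between libraries of the same stage, as in the WT E1 libraries of EIF2AK3 at 96.9, 96.2 and 0.546 CPM.

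These 5 members did not pass the test in ski7-/- embryos. EIF2AK3 had 60.9, 69.2 and 126 CPM at E4 in ski7-/-, against 83.7, 85.6 and 174 CPM at E1. Its ski7-/- embryo libraries were all at the high level. In ski7-/- oocytes EIF2AK3 was at the low level, with 2.72, 0.695 and 1.07 CPM at O4 and 0.468, 0.511 and 0.673 CPM at O1 (rRNA-depleted). The fitted log2 changes between E1 and E4 in ski7-/- were -0.41 for EIF2AK3, -0.29 for nr1d2a, -0.39 for DOCK10, -0.59 for si:dkeyp-98a7.4 and 0.36 for appa. The ski7-/- libraries of appa were split as well, with 2.19, 6.77 and 118 CPM at E4, against 1.18, 6.96 and 89.2 CPM at E1.

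From oocyte to sphere, the members' rRNA-depleted level relative to the other ranked genes was lowest at the last stage. In each rRNA-depleted library the median log2(CPM + 1) of the 200 members was set against that of the other 7002 ranked genes. In ski7-/- the difference averaged -0.01, -0.15, -0.26 and -0.24 at O1 to O4, then -0.88 ± 0.12, -0.97, -1.02 and -1.48 ± 0.07 at E1 to E4 (SD, n = 3). In WT it averaged 0.00, -0.17, -0.29 and -0.34 at O1 to O4, then -0.89 ± 0.10, -1.08, -1.12 and -1.65 ± 0.12 at E1 to E4. The members thus stood at the level of other maternal RNAs in the youngest oocytes and below it in embryos of both genotypes, with steps between O4 and E1 and between E3 and E4. The WT values at E1 and E4 follow from the ranking, while those of ski7-/- and of oocytes come from libraries that it did not use. The ski7-/- level at E1 stood close to that of WT (-0.88 and -0.89), so it is not independent of a choice made on WT levels.

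As a share of gene reads, the members took 8.07% at O1, 4.68% at O4, 1.91% at E1 and 1.18% at E4 in rRNA-depleted RNA of ski7-/-, and 8.71%, 4.87%, 1.81% and 1.09% in WT. Members with clone-type names (zgc:152652, zgc:173556, si:ch211-146l10.8, si:ch1073-263o8.2), the retinol saturase-like gene retsatl and the egg coat genes zp3e and zp3b gave the most reads at O1. Only uniquely mapped reads were counted, so the values of genes with near-identical copies would be uncertain. This may hold for genes that share a name, such as the si:dkeyp-98a7, si:dkey-241l7 and si:ch211-146l10 groups and the zp genes. Their sequences were not compared.

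**Figure D2:**
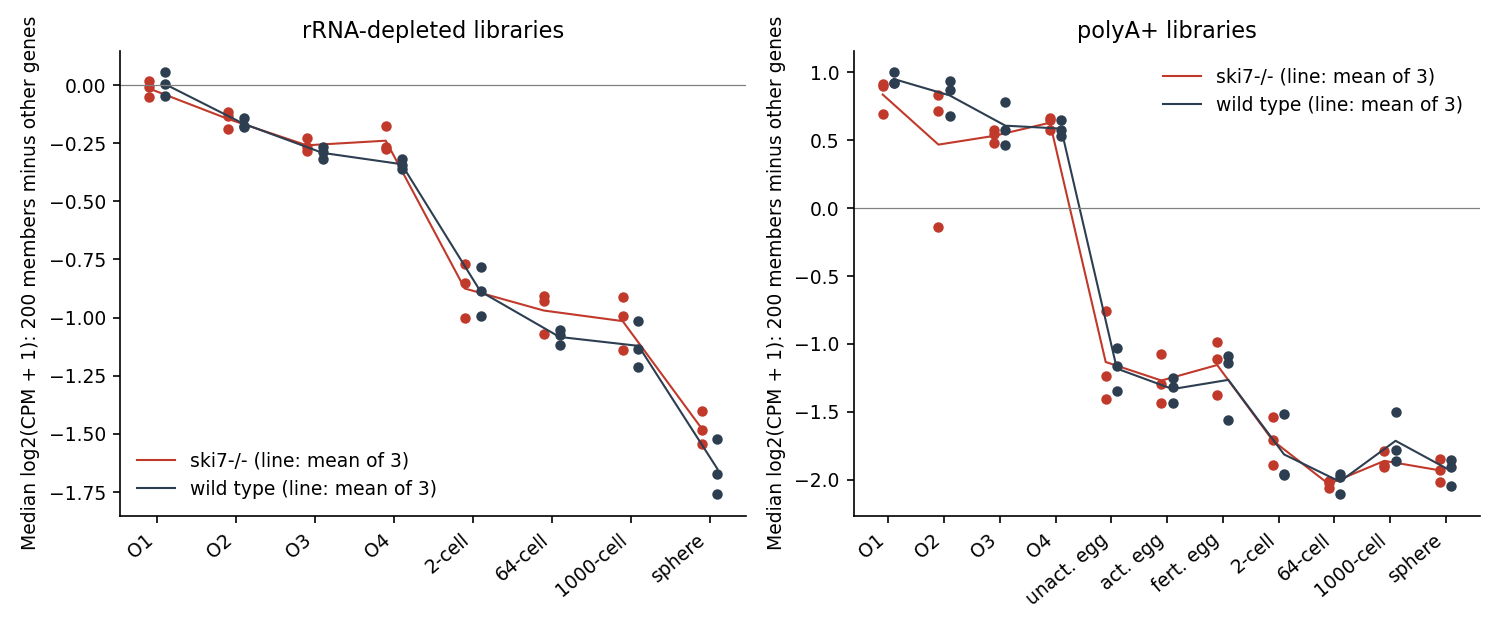
Median log2(CPM + 1) of the 200 members minus that of the other ranked genes in every library (points) and as the mean of 3 (lines), by stage, for rRNA-depleted and polyA+ RNA, ski7-/- in red and WT in dark. In rRNA-depleted RNA the ski7-/- mean is -0.01 at O1 and -1.48 at E4, and the WT mean 0.00 and -1.65. In polyA+ RNA the means lie above 0 in the oocytes of both genotypes (1 ski7-/- library at O2 lies at -0.14). The polyA+ means lie below -1 in all eggs and embryos (ski7-/- replicate 3 lies at -0.76 in UNA and -0.98 in FER eggs).

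Many members already fell during oogenesis. In rRNA-depleted RNA of ski7-/- oocytes, 82 of the 200 members were lower at O4 than at O1 (41.0%, against 18.4% of all 10158 genes tested) and 14 were higher (7%, against 21.8%), at an adjusted p below 0.05 in edgeR's quasi-likelihood test. In WT oocytes 94 were lower (47.0%, against 19.8%) and 12 were higher (6%, against 21.7%). The median log2 change was -0.31 in ski7-/- and -0.33 in WT, against -0.01 and -0.02 over all genes. With the female as a block, which these oocytes allow, 11.5% of the members were higher at O4 in each genotype (all genes 28.9% in ski7-/- and 29.7% in WT), and without ski7 replicate 3 the share in ski7-/- was 4% (all genes 14.7%). Ovarian follicle cells adhere to oocytes, and the summed level of 20 follicle-cell markers was 884 to 933 CPM at O4, against 637 to 936 CPM at O1, in ski7-/-, and 559 to 868 CPM at O4, against 411 to 704 CPM at O1, in WT. Of the 13 follicle-cell markers tested in ski7-/-, 9 were higher at O4 and 1 lower, with a median log2 change of 1.91. The summed level of 9 blood and endothelium markers was 51.4 to 84.9 CPM at O4, against 23.5 to 29.2 CPM at O1, in ski7-/-, and 40.6 to 52.4 CPM at O4, against 18.5 to 24.5 CPM at O1, in WT, and 2 of the 3 tested in ski7-/- were higher (median 1.68). The part of these cells in the members' changes was not tested. Of the 82 members that fell in ski7-/- oocytes, 37 also fell between E1 and E4 in ski7-/- embryos, which is 45.1% of the 82, near the 40.5% of all 200 members, and 45.7% of the 81 called there.

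The largest falls in ski7-/- oocytes were those of ENSDARG00000116512, which has no symbol (78.5, 183 and 56.7 CPM at O4, against 576, 519 and 704 CPM at O1, log2 fold change -2.63), and si:ch211-263m18.4 (108, 342 and 77.6 CPM at O4, against 518, 898 and 684 CPM at O1, -2.11 ± 0.56, adjusted p = 0.00514). The O4 libraries lay below all O1 libraries in both, but the call for si:ch211-263m18.4 was lost without ski7 replicate 3 (-1.75). The largest rises were those of appa (230, 174 and 289 CPM at O4, against 15.4, 15.2 and 8.66 CPM at O1, 4.12, adjusted p = 3.37e-09) and nr1d2a (41.8, 52.8 and 110 CPM at O4, against 5.46, 8.55 and 7.60 CPM at O1, 3.16, adjusted p = 0.0173). Neither overlapped between the stages, and the call for nr1d2a was lost without any 1 of the ski7 replicates (2.64 to 3.42). Both are among the members whose WT embryo libraries were split.

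A further step lay between the late oocyte and the 2-cell embryo. In rRNA-depleted RNA of ski7-/-, 93 members were lower at E1 than at O4 (46.5%, against 23.2% of 10912 genes) and 9 were higher (4.5%, against 19.9%), with a median log2 change of -0.45, against 0.00 over all genes. The share that was higher was 2.5% without ski7 replicate 2 (all genes 14.9%), 2.00% without ski7 replicate 3 (all genes 15.8%) and 13.5% with scaling by library size only (all genes 34.2%). The same step in WT includes libraries that chose the members and was not tested. Oocytes were dissected from ovaries and embryos were collected separately, so differences between fish can enter this step. EIF2AK3, for example, had 83.7, 85.6 and 174 CPM at E1 in ski7-/-, against 2.72, 0.695 and 1.07 CPM at O4. The part of such differences was not tested.

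In polyA+ RNA the change at maturation was much larger and went both ways. In WT, 125 members were lower in unactivated eggs than in O4 oocytes (62.5%, against 41.8% of 10892 genes) and 48 were higher (24%, against 36.7%), with a median log2 change of -2.33, against -0.17 over all genes. Between UNA and FER eggs no member was called in either direction in edgeR's test, where 2.02% of all genes were lower and 0.101% higher. At an unadjusted p below 0.05, 9 members were lower and 3 higher, and DESeq2 called 0 in each direction. These tests did not pair the eggs that came from the same female. From FER eggs to E1, 80 members were lower (40%, against 23.7%) and 25 higher (12.5%, against 21.3%); the share that was lower was 23.5% without WT replicate 3 (all genes 13.9%), and scaling by library size only gave 25% lower (all genes 10.9%) and 19.0% higher (all genes 33.6%). The WT UNA libraries differed in markers of other cells. The summed level of 36 zygotic genes was 28.8, 582 and 289 CPM in them, against 213, 160 and 176 CPM at O4, and was 29.3 to 41.4 CPM in ACT eggs. That of 9 blood and endothelium markers was 12.6, 65.4 and 32.7 CPM in UNA eggs, against 44.4, 74.5 and 81.7 CPM at O4, and that of 20 follicle-cell markers was 227, 1104 and 856 CPM, against 475, 796 and 627 CPM. Their part in the change at maturation was not tested. With any 1 replicate of a genotype left out, 59.6% to 62.5% of the members were lower in UNA eggs and 22.7% to 25.5% higher. Eggs were sequenced as polyA+ RNA, so a shorter tail and fewer molecules cannot be told apart at these steps. The O4 oocytes, the eggs and the embryos were separate collections, and the part of differences between fish was not tested.

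The ratio of polyA+ to rRNA-depleted level gives a measure of capture by tail. Its median log2 value over the members was 0.57 at O1 and 0.71 at O4 in ski7-/-, above the -0.33 and -0.28 of the other ranked genes. At E1 it was -1.48, below the -0.46 of the others. At E2 to E4 it was -1.12, -0.79 and -0.45, where the others stood at -0.03, 0.06 and 0.07. Both library types are scaled to their own totals, so only the members' position among the other genes is read. In ski7-/-, 64 members lay above the others' median at E1, and 25, 20 and 32 at E2, E3 and E4. At E1 80 members (40%) had a log2 ratio below -2 in ski7-/-, against 19.1% of the others. In ski7-/- the members were thus captured more than the other ranked genes in oocytes and less in embryos. In WT the median was 0.67 at O4; the WT ratios at E1 and E4 divide by the levels that ranked the members and are left out.

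The fall that chose the members in WT was also present in ski7-/- embryos, which the ranking did not use. In rRNA-depleted RNA, 81 of the 200 members were lower at E4 than at E1 (40.5%, against 2.94% of all 9917 genes tested) and 190 had a negative log2 change. None was higher, with 0 at an unadjusted p below 0.05 and 0 called by DESeq2. The median log2 change was -0.65 (quartiles -0.85 and -0.44, range -2.07 to 0.62), against 0.02 over all genes. A change of -1 or lower was seen in 36 members (18%, against 1.05% of all genes tested), and in 133 members each of the 3 E4 libraries lay below each of the 3 E1 libraries (66.5%, against 11.8%). The count was 129 at an unadjusted p below 0.05 and 97 by DESeq2, and with the replicate number as a block, which pairs the ski7-/- embryos, 65.0% of the members were called (all genes 6.64%). The share was lower with fewer libraries: 17.5% of the members without ski7 replicate 2 (all genes 0.876%) and 22.0% without ski7 replicate 3 (all genes 1.12%). The share of all genes fell in the same fits. The 10 members without a negative value were appa, KIF23, TRIP12, ERBB4, si:ch211-202f5.3, parp14rs1, dact2, ENSDARG00000109678, cpt1a2b and NHS.

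**Figure D3:**
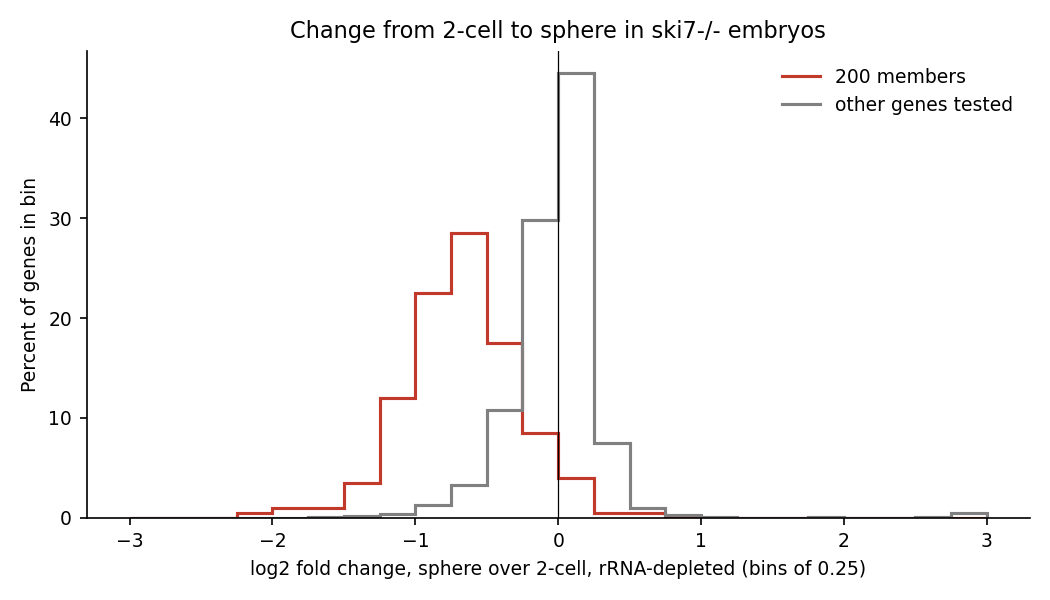
Histogram of the log2 fold change of sphere over 2-cell ski7-/- embryos in rRNA-depleted RNA (bins of 0.25), for the 200 members and for the other genes tested, each as a share of its own number. The members centre on a median of -0.65 and range from -2.07 to 0.62, while the median over all genes is 0.02.

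The fall came late. Between E1 and E2 in ski7-/-, 0 members were lower (all genes 0%; 6 members at an unadjusted p below 0.05; DESeq2 0), with a median log2 change of -0.09. Between E2 and E3, 0 were lower (all genes 0%; 7 unadjusted; DESeq2 0), with a median of -0.08. Between E3 and E4, 31 were lower (15.5%, against 1.24% of all genes), with a median of -0.49. With the replicate block the last share was 41.5% (all genes 3.70%), and it was 10.0%, 5% and 5% without ski7 replicate 1, 2 and 3 (all genes 0.765%, 0.194% and 0.174%). In WT, the step between E2 and E3 gave 0 members lower (all genes 0%, 7 unadjusted, DESeq2 0) and a median of 0.01. Its libraries did not enter the ranking, but those at E3 shared deviations with the E1 libraries of the same number (r = 0.69, 0.68 and 0.74). This step is thus not independent of the choice. The medians of the steps that share libraries with the ranking were -0.19 between E1 and E2 and -0.53 between E3 and E4, given as a description.

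PEF1, a calcium-binding protein of the penta-EF-hand family, fell most in ski7-/- embryos. It had 9.37, 11 and 10.9 CPM at E4 in ski7-/- (rRNA-depleted), against 46.0, 40 and 48.2 CPM at E1, a log2 fold change of -2.07 ± 0.19 (SE, adjusted p = 1.92e-06). In WT it had 13.7, 24.1 and 14.4 CPM at E4, against 39.1, 46.1 and 48.4 CPM at E1. The stages did not overlap in either genotype. The glycosyltransferase-like gene gbgt1l1 had 15.6, 23.7 and 20.9 CPM at E4 in ski7-/-, against 68.4, 72.8 and 69.6 CPM at E1 (-1.77 ± 0.26, adjusted p = 0.000331), again without overlap. The oogenesis-related gene org had 315, 266 and 257 CPM at E4 in ski7-/-, against 517, 581 and 544 CPM at E1 (-0.95 ± 0.09, adjusted p = 2.97e-06), and 317, 356 and 323 CPM at E4, against 621, 546 and 604 CPM at E1, in WT. The stages of org did not overlap in either genotype.

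Single members with known roles in cell division or nuclear import are given next, and no count over such genes is implied by them. ANAPC13, a subunit of the anaphase-promoting complex, had 5.93, 6.26 and 5.98 CPM at E4 in ski7-/-, against 16.1, 15.4 and 15.0 CPM at E1 (-1.32 ± 0.17, adjusted p = 5.08e-05). UBE2C, the ubiquitin-conjugating enzyme that works with this complex, had 46.8, 32.2 and 46.5 CPM at E4, against 91.2, 99.4 and 107 CPM at E1 (-1.23 ± 0.29, adjusted p = 0.0155). The spindle checkpoint gene BUB3 had 83.4, 67.9 and 106 CPM at E4, against 122, 126 and 147 CPM at E1 (-0.60 ± 0.15, adjusted p = 0.0221). In all of them the 3 E4 libraries were below the 3 E1 libraries. TOP2A, DNA topoisomerase II, had 656, 606 and 572 CPM at E4, against 1024, 1030 and 923 CPM at E1 (-0.68 ± 0.10, adjusted p = 0.00038). The importin alpha gene KPNA2 had 390, 343 and 297 CPM at E4, against 659, 637 and 663 CPM at E1 (-0.91 ± 0.08, adjusted p = 1.54e-06). The oocyte importin alpha kpna7 had 360, 313 and 288 CPM at E4, against 525, 532 and 481 CPM at E1 (-0.66 ± 0.15, adjusted p = 0.0163), a call lost without any 1 of the ski7 replicates (-0.74 to -0.62). UBE2C, BUB3, KPNA2, gbgt1l1, org, HSPE1, MRPL14, cox6c, COX4I1 and TENT2 were picked for description after their values were seen. Fits with 1 replicate left out are not given for these genes, so whether their calls would hold there is not shown.

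Single members with mitochondrial products are given in the same way. HSPE1, the mitochondrial chaperonin partner of HSP60, had 15.9, 9.48 and 9.79 CPM at E4 in ski7-/-, against 28.3, 37.9 and 37.4 CPM at E1 (-1.56 ± 0.22, adjusted p = 0.000189). MRPL14, of the mitochondrial ribosome, had 10.6, 9.48 and 6.53 CPM at E4, against 24.4, 21.2 and 28.2 CPM at E1 (-1.44 ± 0.23, adjusted p = 0.000729). The cytochrome c oxidase subunit gene cox6c had 14.4, 11 and 14.4 CPM at E4, against 28.7, 34.7 and 45.3 CPM at E1 (-1.44 ± 0.26, adjusted p = 0.002). COX4I1, a further subunit, had 49.7, 40.3 and 49.0 CPM at E4, against 75.1, 75.3 and 86.6 CPM at E1 (-0.75 ± 0.12, adjusted p = 0.000824), and 36.7, 36.5 and 42.9 CPM at E4, against 61.8, 63.4 and 76.0 CPM at E1, in WT. None of these overlapped between the stages. TENT2, a cytoplasmic poly(A) polymerase, had 104, 99.7 and 112 CPM at E4, against 152, 203 and 231 CPM at E1 (-0.88 ± 0.17, adjusted p = 0.00396), also without overlap.

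Not all members named by rank fell in ski7-/-. KIF23, a kinesin of the central spindle, had 38.7, 33.7 and 34.8 CPM at E4 in ski7-/-, against 21.6, 15.9 and 33.3 CPM at E1 (0.62, adjusted p = 0.52), whereas WT had 15.7, 14.2 and 14.8 CPM at E4, against 53.6, 39.2 and 31.4 CPM at E1. Its E4 libraries lay above those of E1 in ski7-/- and below them in WT. The survivin gene birc5b had 8.43, 6.09 and 14.1 CPM at E4 in ski7-/-, against 10.2, 9.93 and 11.6 CPM at E1 (-0.14, adjusted p = 1), and the stages overlapped. The channel-family gene ano10b was called (13.1, 13.4 and 14.1 CPM at E4, against 35.4, 41.8 and 34.2 CPM at E1, -1.43 ± 0.31, adjusted p = 0.00891) but lost the call without any 1 of the ski7 replicates (-1.52 to -1.33).

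In polyA+ embryos the members split into falling and rising RNAs. Of the 175 members with enough polyA+ reads to be tested, 64 were lower at E4 than at E1 in ski7-/- (36.6%, against 31.2% of 9232 genes) and 57 were higher (32.6%, against 35.8%). In WT 68 were lower (38.9%, against 32.6%) and 58 higher (33.1%, against 37.7%). These WT libraries shared deviations with same-numbered rRNA-depleted libraries (mean r 0.59 over the embryo stages), among them those that chose the members. They are therefore not independent of the choice. Whether both library types were made from the same RNA is not stated. The shares stood near those of all genes in both directions, and the median log2 change of the members was -0.05 in ski7-/- and -0.09 in WT. Between the genotypes 59 members were lower in both, 92.2% of the 64 and 86.8% of the 68, and 51 were higher in both, 89.5% of the 57 and 87.9% of the 58.

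Most polyA+ calls fell on the step between E1 and E2. There, 52 members were lower and 45 higher in ski7-/- (all genes 24.9% and 30.1%), and 57 lower and 42 higher in WT (all genes 27.1% and 32.6%). Between E2 and E3, 4 were lower and 4 higher in ski7-/- (all genes 2.17% and 2.77%), and 8 lower and 30 higher in WT (all genes 7.41% and 6.78%); the difference between the genotypes at this step was not tested. Between E3 and E4, 11 were lower in ski7-/- (6.29%, against 1.56%) and 10 in WT (5.71%, against 1.26%). None was higher at that step in edgeR's test in either genotype (all genes 0.91% in ski7-/- and 1.26% in WT; 6 members at an unadjusted p below 0.05 in each; DESeq2 called 1 in ski7-/- and 0 in WT). The shares at the later steps changed when 1 replicate was left out. The 17.1% of members higher at E3 than at E2 in WT became 8.67%, 0.575% and 7.51% without WT replicate 1, 2 and 3 (all genes 4.45%, 1.20% and 3.51%) and 8.05% without ski7 replicate 2 (all genes 4.88%), and the 4.57% lower became 1.72% and 1.16% without WT replicate 2 and 3 (all genes 0.907% and 3.90%). Between E3 and E4 the lower share was 4%, 3.45% and 3.43% without ski7 replicate 1, 2 and 3 in ski7-/- (all genes 0.737%, 0.514% and 0.517%), and 1.73%, 2.3% and 3.47% without WT replicate 1, 2 and 3 in WT (all genes 0.306%, 0.929% and 0.525%). The 4 members lower and 4 higher between E2 and E3 in ski7-/- gave shares between 0% and 4.60% in the leave-outs.

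The direction in polyA+ embryos went with the direction at egg maturation, while in rRNA-depleted RNA both classes fell. The split used here was made after the values were seen, and is given as counts. Of the 125 members that were lower in WT UNA eggs than in O4 oocytes, 105 were tested in ski7-/- polyA+ embryos, where 55 were higher and 14 lower at E4 than at E1, with a median log2 change of 0.79. Of the 48 members that were higher in UNA eggs, 47 were tested, and 41 were lower and 0 higher, with a median of -1.97. The same contrast was found over all genes: of 3410 that were lower in UNA eggs, 75% were higher and 3.26% lower at E4, and of 3859 that were higher in UNA eggs, 65.2% were lower and 5.23% higher. In rRNA-depleted ski7-/- embryos both classes went down, with 46 of 125 and 32 of 48 members lower (all genes of the same classes 3.86% and 3.25%) and medians of -0.67 and -0.72. Of the 27 members in neither class, 3 were lower, with a median of -0.44. Between E3 and E4, 10 of the 125 and 19 of the 48 were lower (1.24% of all genes), with medians of -0.48 and -0.57. A larger share was thus called in the class that was higher in UNA eggs, and this difference was not tested.

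In oocytes and at the step to the embryo the classes gave the following counts, and the difference between the classes was not tested. In rRNA-depleted ski7-/- RNA, 71 of the 125 members that were lower in UNA eggs were lower at O4 than at O1 and 4 were higher (all genes of that class 25% and 17.8%), and 76 were lower and 3 higher at E1 than at O4 (median -0.77, all genes 36.3% and 13.1%). Of the 48 that were higher in UNA eggs, 9 were lower and 8 higher at O4 than at O1 (all genes of that class 13.6% and 25.1%), and 13 were lower and 3 higher at E1 than at O4 (median -0.01, all genes 10% and 30.6%).

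**Figure D4:**
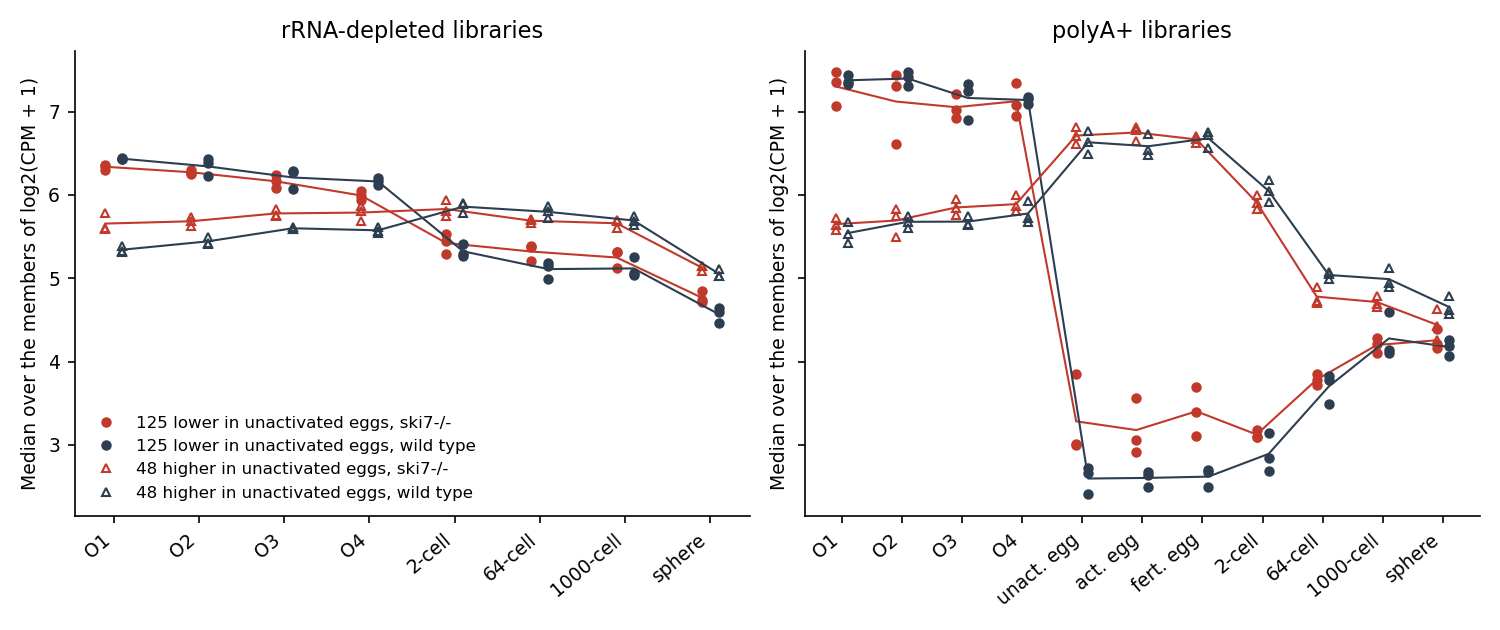
Median log2(CPM + 1) by stage of the 125 members that were lower and the 48 that were higher in WT unactivated eggs than in O4 oocytes (polyA+), in rRNA-depleted and polyA+ RNA, ski7-/- and WT, as means of 3 libraries. In rRNA-depleted RNA both classes are lower at E4 than at E1; in polyA+ RNA the class of 125 rises and the class of 48 falls between E1 and E4, with median log2 fold changes of 0.79 and -1.97 in ski7-/-.

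Single genes show how far the library types part. TOP2A had 2793, 2888 and 2029 CPM in WT UNA eggs, against 414, 553 and 632 CPM in WT O4 oocytes (polyA+, log2 fold change 3.10 ± 0.21, adjusted p = 4.47e-18). In ski7-/- polyA+ embryos it had 78.8, 71.1 and 53.5 CPM at E4, against 1254, 1582 and 1590 CPM at E1 (-4.82 ± 0.21, adjusted p = 2.57e-13), beside -0.68 in rRNA-depleted RNA. PEF1 likewise had 3.72, 4.74 and 3.22 CPM at E4 in polyA+ RNA of ski7-/-, against 76.6, 81.9 and 89.3 CPM at E1 (-4.75 ± 0.23, adjusted p = 1.35e-12). For org and BUB3 the polyA+ changes in ski7-/- were -3.62 and -4.99. COX4I1 moved the other way: 6.04, 20.8 and 14.2 CPM in WT UNA eggs, against 319, 316 and 307 CPM in O4 oocytes (-3.64), then 38.6, 37.1 and 39.5 CPM at E4 in ski7-/-, against 7.54, 7.33 and 11.3 CPM at E1 (1.76 ± 0.19, adjusted p = 7.21e-08). The polyA+ level of COX4I1 thus rose in the embryos in which its rRNA-depleted level fell. The same held for cox6c, with 13.6, 11.2 and 11.2 CPM at E4, against 2.6, 2.18 and 2.06 CPM at E1 (2.02 ± 0.27, adjusted p = 1.46e-06), and for MRPL14, with a polyA+ change of 2.79.

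Egg coat genes gave several members. The zona pellucida (zp) glycoproteins build the coat around the egg, and 6 zp genes with the oocyte importin kpna7 made 7 of the 18 egg coat and oocyte-specific genes that reached 20 CPM, where the members are 2.78% of all genes that did. In ski7-/- rRNA-depleted embryos 4 of the 22 tested genes of that list were lower at E4 than at E1 (all genes 2.94%) and 0 higher (median -0.47), and in ski7-/- oocytes 20 of 23 were lower at O4 than at O1 (all genes 18.4%, median -0.86). Of the genes with a zp symbol alone, 7 of 13 were members, zpax2 included, and 1 of 17 tested was lower at E4 than at E1 with 0 higher (median -0.48), while 16 of 20 were lower at O4 than at O1. For the coat gene zp3f.1 the libraries held 187, 196 and 169 CPM at E4 in ski7-/-, against 324, 294 and 304 CPM at E1 (-0.72 ± 0.14, adjusted p = 0.00525), a call lost without any 1 of the ski7 replicates (-0.80 to -0.66). For zp3b they held 156, 212 and 185 CPM at E4, against 233, 324 and 333 CPM at E1 (-0.66, adjusted p = 0.0932), after 1552, 1619 and 1064 CPM at O4 and 2269, 2641 and 2285 CPM at O1. The stages did not overlap in either gene. The log2 changes of zp3e, zp2.2, zp3.2 and zp2.1 between E1 and E4 were -0.62, -0.54, -0.48 and -0.37, none of them called. In polyA+ ski7-/- embryos zp3f.1 had 45.9, 51.3 and 47.6 CPM at E4, against 13.3, 13.3 and 10.6 CPM at E1 (1.58), so it belongs with the genes whose polyA+ level rose.

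Nuclear genes of the respiratory chain and ATP synthase gave 12 members of 45 that reached 20 CPM (cox6c, NDUFB8, atp5if1a, COX4I1, COX7A2, cox7b, atp5f1e, atp5mf, cox6a1, ATP5PD, NDUFS3 and NDUFS5), and 14 of 70 tested were lower at E4 than at E1 in ski7-/- rRNA-depleted RNA (all genes 2.94%), with 0 higher and a median of -0.35. Mitochondrial ribosome genes gave 5 of 36 (MRPL21, mrps6, MRPL14, MRPL17 and MRPL40), and 9 of 54 tested were lower, with a median of -0.29. Genes of the cytoplasmic ribosome gave 0 members of 67, and 0 of 77 tested were called, with a median of -0.05. These lists, taken by symbol, were added after the members were known.

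Other lists held no more than 2 members each. Cell cycle and meiosis gave KIF23 and birc5b of 30 genes, where the members are 2.78% of all ranked genes. In ski7-/- rRNA-depleted embryos 6 of 36 tested genes of that list were lower at E4 than at E1 and 1 higher (all genes 2.94% and 0.877%). The members ANAPC13, UBE2C and BUB3 are not in that list. DNA replication gave TOP2A of 32, and 4 of 34 tested were lower (all genes 2.94%). The maternal dorsal determinant hwa was the single member of 16 maternal regulators of axis and transcription; it had 30.3, 30.8 and 23.4 CPM at E4 in ski7-/-, against 29.9, 45.9 and 46.2 CPM at E1, and the stages overlapped (-0.52, adjusted p = 0.127). The machinery of maternal RNA decay gave no member, where 2.78% of all ranked genes were members, a share that gives less than 1 gene in lists of this size: 0 of 16 genes of deadenylation, 0 of 21 of decapping, 0 of 7 of the exosome and its helicase complex, and 0 of 18 of the microRNA and m6A pathways. There was likewise none among 24 RNA-binding protein genes, 17 germ plasm genes and 4 targets of miR-430. Zygotic genes marked the start of transcription, with a summed level of 261 to 424 CPM at E4, against 85.6 to 87.5 CPM at E1, in ski7-/-, and 253 to 480 CPM at E4, against 60.9 to 82.8 CPM at E1, in WT; 9 of 10 tested were higher at E4 in ski7-/-. Their part in the members' fall was not tested.

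Between the genotypes, the members changed about as often as other genes when the stages of a period were counted together. In rRNA-depleted oocytes 25 members were higher in ski7-/- than in WT at 1 or more stages (12.5%, against 10.3% of all genes) and 19 were lower (9.50%, against 11.7%). In rRNA-depleted embryos at E2 and E3, 22 were higher (11%, against 9.21%) and 21 lower (10.5%, against 8.90%), with WT libraries that carry the numbers of those that chose the members. In polyA+ RNA of oocytes 13 of 194 were higher (6.70%, against 9.46%) and 14 lower (7.22%, against 6.70%). In polyA+ eggs 15 of 138 were higher (10.9%, against 11.4%) and 15 lower (10.9%, against 12.2%). The zygotic markers summed to 42.8, 44.5 and 1656 CPM in the ski7-/- UNA libraries, given from low to high, against 28.8, 289 and 582 CPM in WT, and their part was not tested. In polyA+ embryos 35 of 175 were higher (20%, against 17.6%) and 32 lower (18.3%, against 17.5%), again with WT libraries that carry those numbers. At some single stages the shares stood further apart, and these differences were not tested. At E3 in polyA+ RNA 24 members were lower (13.7%, against 7.63%) and 11 higher (6.29%, against 7.17%). At E2 in rRNA-depleted RNA 18 were higher (9%, against 5.18%) and 7 lower (3.5%, against 5.76%). At O2 in polyA+ RNA 8 were higher (4.12%, against 7.51%) and 14 lower (7.22%, against 4.22%). Leaving out 1 replicate of a genotype, at all its stages, moved several of the shares counted over stages together. In polyA+ oocytes the lower members made 4.66% without ski7 replicate 1 and 16.5% without ski7 replicate 2 (all genes 5.82% and 7.88%), and the higher members 3.65% without WT replicate 1 (all genes 3.85%). In polyA+ eggs the higher members made 5.80% without WT replicate 2, 16.7% without WT replicate 3 and 6.98% without ski7 replicate 3 (all genes 5.01%, 12.3% and 6.96%), and the lower members 5.80% without WT replicate 2 and 6.62% without ski7 replicate 2 (all genes 5.62% and 7.98%). In rRNA-depleted embryos at E2 and E3 the higher members made 7% without WT replicate 1 and 6% without ski7 replicate 3 (all genes 6.14% and 6.49%), and the lower members 6%, 5.50%, 4% and 5% without WT replicate 1, WT replicate 2, ski7 replicate 2 and ski7 replicate 3 (all genes 5.76%, 6.40%, 5.27% and 7.13%).

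The change between E1 and E4 in polyA+ RNA differed between the genotypes in few members. The test of the difference called 2 lower in ski7-/- than in WT (1.14%, against 0.769% of all genes) and 0 higher (against 0.52%; 4 members at an unadjusted p below 0.05; DESeq2 0). The mitochondrial ribosome gene mrps6 had 10.4, 9.91 and 7.56 CPM at E4 in ski7-/-, against 12.1, 10.9 and 16.6 CPM at E1, and 14.2, 13.5 and 13.0 CPM at E4, against 5.38, 4.27 and 2.1 CPM at E1, in WT, a difference of -2.16 ± 0.42 (adjusted p = 0.0117). Its polyA+ level was higher at E4 than at E1 in WT libraries only. The gene si:ch73-299h12.9 had 12, 12.6 and 10.8 CPM at E4, against 1.37, 1.82 and 2.5 CPM at E1, in ski7-/-, and 15.3, 12.9 and 16.1 CPM at E4, against 0.807, 0.918 and 0.56 CPM at E1, in WT (-1.48 ± 0.33, adjusted p = 0.0298). In these WT E1 libraries 3 reads equal 0.269, 0.0744 and 0.42 CPM, so its level in replicates 1 and 3 rested on few reads. Both calls were lost in most fits with 1 replicate left out, which also have fewer libraries to test with. That of mrps6 was lost without WT replicate 2 or any 1 of the ski7 replicates (-2.31 to -1.82). That of si:ch73-299h12.9 was lost without WT replicate 1, WT replicate 3 or any 1 of the ski7 replicates (-1.65 to -1.18). The estimates kept their sign. The same difference in rRNA-depleted RNA would use the libraries that chose the members and was not tested. The WT polyA+ libraries at E1 and E4 shared deviations with those libraries, so the polyA+ test is not independent of the choice either.

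In oocytes the lowest ski7-/- level relative to WT among the members called was that of si:dkeyp-98a7.8, looked up after the values were seen. It had 3.59, 2.94 and 1.75 CPM at O1 in rRNA-depleted RNA of ski7-/-, against 428, 167 and 389 CPM in WT (log2 fold change -7.11, adjusted p = 8.46e-08 in edgeR's test), and the genotypes did not overlap. Its log2 fold change at the 4 oocyte stages was -7.11 to -6.25 in rRNA-depleted and -8.05 to -6.10 in polyA+ RNA. It was called with any 1 replicate of a genotype left out. Its name places it with other si:dkeyp-98a7 genes, of which si:dkeyp-98a7.4 had 303, 169 and 3.53 CPM in WT at O1 (rRNA-depleted). Both are among the 12 members with split WT embryo libraries. The part of differences between fish was not tested. Whether the si:dkeyp-98a7 genes are similar enough in sequence to make the uniquely mapped reads of si:dkeyp-98a7.8 uncertain was not checked.

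Members lower in ski7-/- embryos included an elongation factor and a deacetylase gene. A member had to reach 20 CPM in WT at E1. The WT embryo libraries of these tests shared deviations, at least in part, with those that chose the members. The embryo p-values are therefore not independent of the choice. In WT at E1, eef2a.1 (22.8 CPM) and MYT1 (20.9 CPM) lay close to the cut. The translation elongation factor gene eef2a.1 had 1.64, 1.94 and 1.91 CPM at E1 in polyA+ RNA of ski7-/-, against 14.9, 30.3 and 36.3 CPM in WT (-3.99 ± 0.57, adjusted p = 4.7e-05). In rRNA-depleted RNA at E3 it had 2.42, 1.87 and 1.13 CPM in ski7-/-, against 9.28, 19.8 and 19.5 CPM in WT (-3.15 ± 0.75, adjusted p = 0.00789). The genotypes did not overlap in either, whereas in O1 oocytes ski7-/- had 30.3, 28.5 and 31.4 CPM and WT 15.6, 22.6 and 61.0 CPM. The histone deacetylase gene hdac3 had 11.9, 9.63 and 14.4 CPM at E1 in polyA+ RNA of ski7-/-, against 34.6, 40.7 and 41.8 CPM in WT (-1.83 ± 0.29, adjusted p = 0.000137), and it was lower in rRNA-depleted RNA at E3 too (-1.14, adjusted p = 0.0208). In rRNA-depleted O4 oocytes hdac3 was higher in ski7-/-, at 49.9, 55.6 and 47.8 CPM, against 37.5, 35.8 and 35.3 CPM in WT (0.53, adjusted p = 0.0157). MYT1 had 0.967, 2.19 and 0.68 CPM at E3 (rRNA-depleted) in ski7-/-, against 22.1, 21.8 and 11.9 CPM in WT (-3.91 ± 0.52, adjusted p = 5.58e-05). The teashirt zinc finger gene tshz3a had 38.3, 30.4 and 20 CPM at E2 in ski7-/-, against 92.8, 63.6 and 66.9 CPM in WT (-1.34 ± 0.27, adjusted p = 0.00292). In polyA+ RNA at E4, atad5b, whose human counterpart unloads the replication clamp from DNA, had 4.26, 2.24 and 5.60 CPM in ski7-/-, against 13.5, 19.3 and 16.3 CPM in WT (-2.08 ± 0.57, adjusted p = 0.0184), a call lost without WT replicate 3, ski7 replicate 1 or ski7 replicate 2 (-2.13 to -1.75).

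Embryo tests of members higher in ski7-/- are likewise not independent of the choice. These members included UTP23, which takes part in ribosomal RNA processing in yeast. It had 7.67, 6.48 and 6.31 CPM at E1 in polyA+ RNA of ski7-/-, against 1.08, 1.39 and 1.40 CPM in WT (2.27 ± 0.22, adjusted p = 4.81e-07). In rRNA-depleted RNA at E3 it had 34.3, 29.7 and 29.5 CPM in ski7-/-, against 22.4, 27.4 and 23.8 CPM in WT (0.33, adjusted p = 0.209). In O1 oocytes UTP23 was lower in ski7-/-, at 44.6, 39.8 and 42.5 CPM, against 58.0, 59.8 and 58.4 CPM in WT (rRNA-depleted, -0.49, adjusted p = 0.000377). EIF3K, of a translation initiation factor, had 21.4, 20.8 and 17.1 CPM at E4 in polyA+ RNA of ski7-/-, against 7.49, 5.28 and 6.40 CPM in WT (1.61 ± 0.29, adjusted p = 0.00083). The nuclear gene ylpm1 had 184, 237 and 219 CPM at E3 (rRNA-depleted) in ski7-/-, against 117, 111 and 81.7 CPM in WT (1.03 ± 0.20, adjusted p = 0.00196). The coat gene zp3f.1 was higher in ski7-/- at E2 and E3 (0.70 and 0.72, adjusted p = 0.00435 and 0.00274).

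Other calls of this kind, also not independent of the choice, were lost in several fits with 1 replicate left out. Such fits also have fewer libraries to test with. The ubiquitin ligase gene TRIP12 had 77.1, 77.7 and 92.5 CPM at E3 (rRNA-depleted) in ski7-/-, against 25.4, 24.6 and 4.33 CPM in WT (2.08 ± 0.57, adjusted p = 0.0193), a call lost without any 1 of the ski7 replicates (1.99 to 2.13). Like eef2a.1, it is among the 12 members with split WT libraries. The cytochrome c oxidase subunit gene cox6a1 had 44.2, 70.3 and 59.4 CPM at E3 in ski7-/-, against 19.4, 19.3 and 31.4 CPM in WT (1.33 ± 0.39, adjusted p = 0.0266), a call lost without WT replicate 1, WT replicate 2, ski7 replicate 2 or ski7 replicate 3 (1.18 to 1.32). The histone chaperone gene NASP had 510, 113 and 647 CPM at E1 in polyA+ RNA of ski7-/-, against 85.4, 90.1 and 82.8 CPM in WT (2.16 ± 0.65, adjusted p = 0.0187). The ski7-/- libraries of NASP were split at each embryo stage, with 565, 118 and 526 CPM at E1 in rRNA-depleted RNA, against 137, 117 and 119 CPM in WT, and its call was lost in each leave-out but that of ski7 replicate 2 (1.71 to 2.18).

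**Figure D5:**
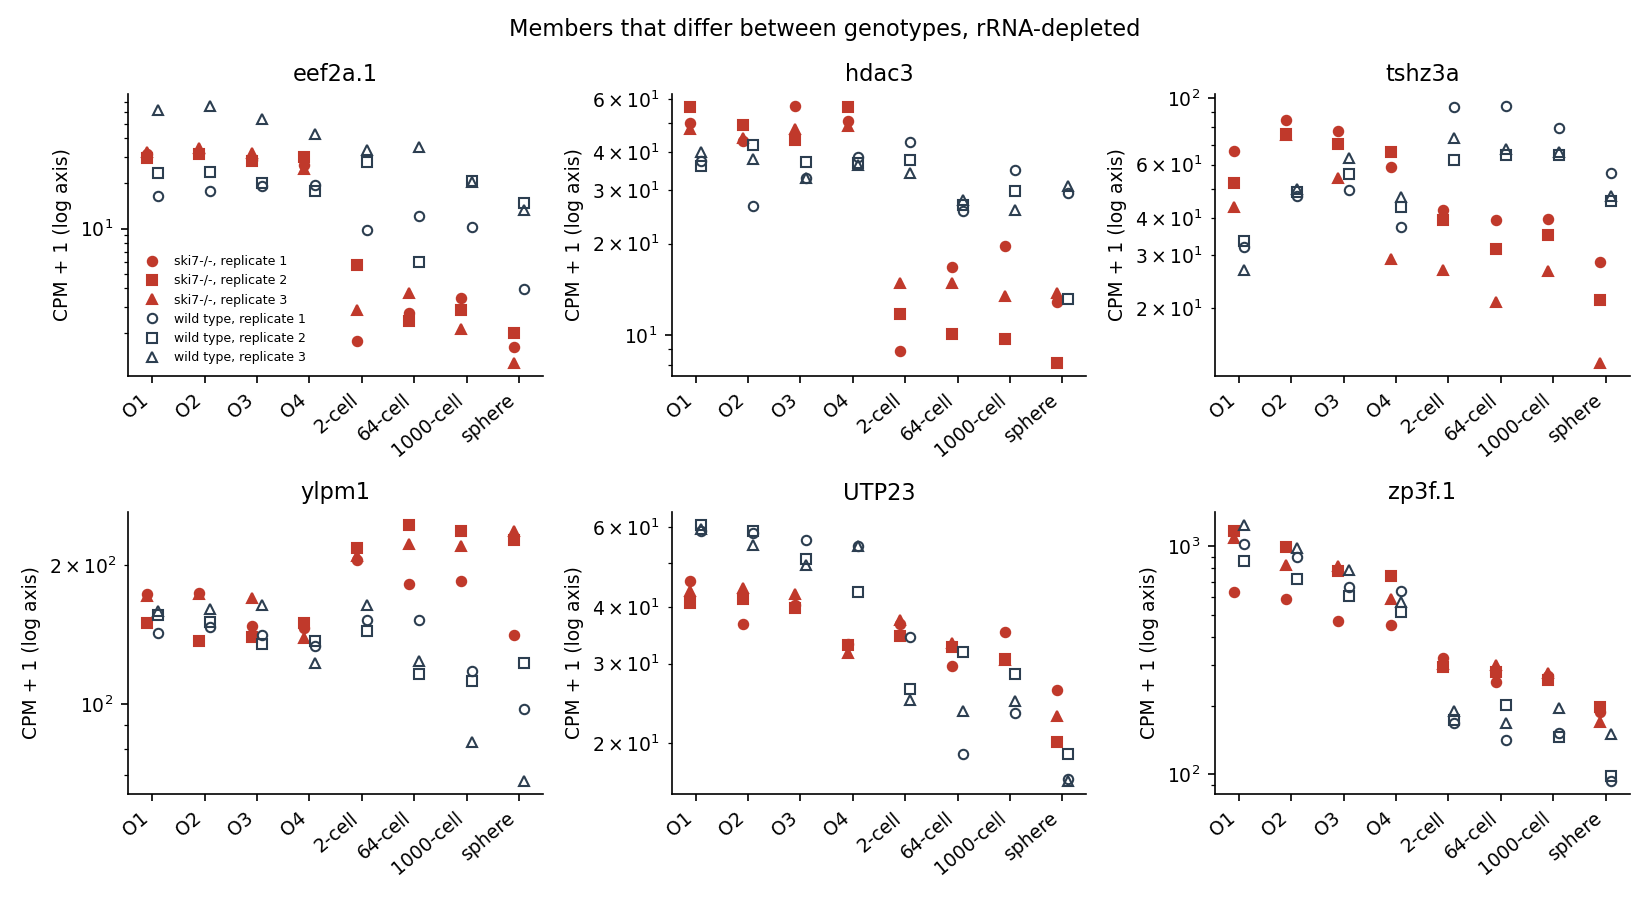
Level (CPM + 1, log axis) of 6 members in each rRNA-depleted library by stage, ski7-/- in red on the left and WT in dark on the right, each point a library. For eef2a.1 the ski7-/- libraries at E3 lie at 2.42, 1.87 and 1.13 CPM, below the WT libraries at 9.28, 19.8 and 19.5 CPM, and for ylpm1 they lie above the WT libraries.

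Genes outside the members had mean levels that correlated closely with those of the members. Over the 16 rRNA-depleted groups of genotype and stage, the log2(CPM + 1) means of zgc:174935, GALC and si:ch73-359m17.2 correlated with the members' mean at Pearson's r = 0.98 each, the highest of the genes with at least 20 CPM at E1. These points share libraries with the members and are a description. GALC, galactosylceramidase, averaged 108 CPM in WT at E1.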

How the data were processed

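Each library has a table of whole-number read counts per Ensembl gene, deposited by the authors. Per their methods and the submitters' processing notes, reads of stranded libraries were trimmed (bbduk in the methods, cutadapt 1.18 in the notes), aligned to GRCz11 with HISAT2 2.1.0 and SAMtools 1.9, and uniquely mapped reads were counted with HTSeq 0.9.1; kallisto 0.43.0 values were not used here. Of 31466 gene IDs, 28965 (92.1%) matched a symbol in the reference table. CPM is a count per 1000000 gene reads, without the HTSeq summary lines (10.7% to 29.7% of all reads listed), and is not divided by gene length; 3 reads equal 0.0206 to 1.03 CPM in polyA+ and 0.0644 to 2.08 CPM in rRNA-depleted libraries.

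Tests used edgeR 4.0.16 (quasi-likelihood, TMM scaling) in R 4.3.3 on counts of genes with at least 10 CPM in 3 or more libraries of a period and library type, with groups of genotype and stage and a Benjamini-Hochberg adjusted p below 0.05 over all genes tested. Each of oogenesis, mature eggs and embryogenesis was fitted on its own, and fits over oocytes with eggs or embryos gave the steps between periods. DESeq2 1.42.0, other filters, scaling by library size only, the replicate block, leave-outs and other rankings were the alternatives. A leave-out dropped all libraries of 1 replicate number of 1 genotype from a fit. The alternatives that rank without 1 WT replicate or drop members with split WT libraries were chosen after seeing the data. Figures and summaries used Python 3.11.15 with pandas 2.3.3, numpy 2.4.6, scipy 1.17.1 and matplotlib 3.10.9.

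The members and gene lists were chosen with earlier results of these data known. Genes named in the text are the first 10 members by rank with a symbol that is no clone name, members in a gene list, the 3 higher and 3 lower members with the largest genotype difference and no overlap in polyA+ embryos and in rRNA-depleted embryos at E2 and E3, the 2 largest rises and falls in ski7-/- oocytes, 2 genes on each side of the end of the ranking, and the 3 genes of closest course; others are said to be picked after their values were seen. 1 gene of the first group is not reported here. The replicate numbers pair stages within a genotype where all correlations of deviations from group means are above 0.1. This held in ski7-/- rRNA-depleted embryos (0.71 to 0.84), rRNA-depleted oocytes (0.44 to 0.77 in ski7-/- and 0.66 to 0.91 in WT) and eggs (0.61 to 0.92). WT rRNA-depleted embryos (-0.07 to 0.74) and the 2 genotypes with each other (mean -0.03) did not meet this. The replicate block still joined the 2 genotypes by number where they were compared. Libraries of both types with the same number shared deviations (mean r 0.71 in ski7-/- and 0.59 in WT embryos). No source says that embryo libraries came from separate clutches, so p-values measure the spread between these libraries.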

Additional observations from a re-analysis of the deposited data

Results flagged for a closer look

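The change in polyA+ level between E1 and E4 differed between the genotypes, by the interaction term of edgeR's quasi-likelihood fit, in 2 members (1.14%, against 0.769% of all genes). For mrps6, of the mitochondrial ribosome, the log2 change in ski7-/- minus that in WT was -2.16 ± 0.42 (SE, n = 3 libraries per group, adjusted p = 0.0117), with 3 of 3 WT libraries higher at E4 than each at E1 and 3 of 3 ski7-/- libraries lower. For si:ch73-299h12.9 it was -1.48 ± 0.33 (adjusted p = 0.0298), with all libraries of both genotypes higher at E4 than at E1. The WT E1 level of si:ch73-299h12.9 rested on few reads in replicates 1 and 3. Without a filter on low counts the adjusted p was 0.0559 for mrps6 and 0.213 for si:ch73-299h12.9. The first call was lost in 4 and the second in 5 of the 6 fits that left out 1 replicate of a genotype. The WT libraries of this test shared deviations with those that chose the members, so it is not independent of the choice.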

How the results depend on the processing

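Of 651 values of the main shares of members called, under all alternatives, 585 stayed within 1.5 times the value given and 66 did not. DESeq2 moved the lower members in polyA+ oocytes of ski7-/- to 16% (all genes 10.1%). It moved the interaction (change between E1 and E4 lower in ski7-/-) to 1.71% (all genes 1.44%). With a filter at 1 CPM the higher interaction share was 0.50% (all genes 0.28%). Without a filter the genotype shares were 4% higher in polyA+ oocytes (all genes 3.45%), and 6% higher and 7% lower in eggs (all genes 2.46% and 2.76%). They were 12% higher in polyA+ embryos (all genes 6.73%) and 5.50% lower in rRNA-depleted embryos at E2 and E3 (all genes 3.48%). The lower interaction share was 0% (all genes 0.0693%). Scaling by library size only gave 21.7% higher in eggs (all genes 20.6%) and 1.71% for the lower interaction (all genes 1.47%). It gave 10.5% higher at O4 than at O1 in WT (all genes 30.6%) and 13.5% higher at E1 than at O4 in ski7-/- (all genes 34.2%). At E1 against FER eggs it gave 25% lower and 19.0% higher (all genes 10.9% and 33.6%). It also moved the median log2 change of all genes at UNA to -1.02, and those between E1 and E4 in polyA+ RNA to 0.44 and 0.56.

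With the replicate block, stages were paired within a genotype as far as the numbers allow. The lower share in ski7-/- rRNA-depleted RNA was then 65.0% from E1 to E4 and 41.5% from E3 to E4 (all genes 6.64% and 3.70%). The share of rises from O1 to O4 was 11.5% in each genotype (all genes 28.9% in ski7-/- and 29.7% in WT). The interaction was 1.14% higher and 4% lower (all genes 2.77% and 3.78%). For ski7-/- against WT the block instead joined same-numbered libraries of both genotypes, which did not share deviations. There, 22.5% of the members were higher in eggs (all genes 19.0%). At E2 and E3, 17.5% were higher and 16.5% lower (all genes 13.6% and 13.1%).

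With the first 100 genes of the ranking the lower interaction share was 2.44%, and with the first 400 the rises were 9.30% from O1 to O4 in WT and 7.50% from O4 to E1 in ski7-/-. Ranked without WT replicate 1, they were 9.69% in WT and 10.7% in ski7-/- from O1 to O4 and 9.05% from O4 to E1, and without WT replicate 3 they were 10.6% and 12.1% from O1 to O4. With at least 50 CPM at E1 they were 11% in each genotype from O1 to O4 and 7.50% from O4 to E1, with 4.55% lower in polyA+ oocytes and 0.518% for the lower interaction. The shares of all genes beside these other rankings are those of the main fits.

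Leaving out 1 replicate of a genotype gave 17.5% to 39.0% for the fall from E1 to E4 in ski7-/- rRNA-depleted RNA. The fall from E3 to E4 there was 5% to 16%. Rises in ski7-/- were 4% to 7.50% from O1 to O4 and 2.00% to 5% from O4 to E1. The fall from FER eggs to E1 was 23.5% to 41.0%. For ski7-/- against WT the ranges were 3.65% to 6.74% higher and 4.66% to 16.5% lower in polyA+ oocytes. They were 5.80% to 16.7% and 5.80% to 13.9% in eggs, and 6% to 14.0% and 4% to 8.50% at E2 and E3. The lower interaction was 0% to 0.578% (all genes 0.164% to 0.645%). Among single genes, birc5b ranged between -0.46 and 0.06, 0.06 being without ski7 replicate 2, on a change that was not called. The depth limits single genes: the median member had 194 reads over the 3 WT E4 libraries.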
